A study of Homo sapiens with 6 samples.

Results

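The helicases described here were PIF1, RTEL1, HELB, RECQL, RECQL4, RECQL5, WRN, DNA2 and HELLS, 9 of the 16798 coding genes in the deposited gene table, taken by their gene symbols together with the transcripts of PIF1. PIF1 was chosen by its fall between the same control and 4HC samples, so its values are given as a description without a test. The other 8 genes were named for their relation to it, with earlier results of these data known. RNA sequencing of total RNA had been performed on 6 samples of COV434, an established human cell line that the labels call granulosa cells. The 3 control samples carry the genotype label WT, and what they received in place of drug is not stated. The 3 treated samples received 4HC, the active form of the chemotherapy drug cyclophosphamide (CTX) used in culture, at 15 µM for 24 h. All samples come from 1 cell line in the same medium, and the labels do not say whether the replicates were separate cultures, so p-values measure the spread between these samples, which may be technical.

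Helicases use ATP to separate the strands of DNA, or to move along it and displace what is bound. PIF1 unwinds G-quadruplexes and other folded DNA, helps replication forks through such sites and removes telomerase from chromosome ends, and a form of it works in mitochondria. The RecQ family, here RECQL, RECQL4, RECQL5 and WRN, restarts stalled forks and takes apart recombination intermediates, and inherited loss of WRN or RECQL4 causes Werner or Rothmund-Thomson syndrome. RTEL1 opens telomere loops, HELB acts on the single-stranded DNA protein RPA and restrains the trimming of broken ends, and DNA2 is a nuclease as well as a helicase. HELLS, also called LSH, is a chromatin remodeler required for DNA methylation at repeats. 4HC yields a mustard that crosslinks the strands of DNA, which such enzymes must pass or repair.

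The promoters of PIF1 and HELLS are printed because these genes moved in opposite directions and their sequences hold different cell cycle motifs. The pair was picked with both known, and a link between motif and direction was not tested. RECQL, also higher in 4HC, held no E2F match. Each printed promoter runs from 250 bases before to 50 bases after the first start site listed by RefSeq, on GRCh38.p14, 5′ to 3′ on the gene's strand, chr15:64825598-64825897 on the minus strand for PIF1 and chr10:94545538-94545837 on the plus strand for HELLS. The gene interval of PIF1 extends beyond this start, to 64827173, and a start nearer to that end was not searched. Capitals mark 3 motifs, each searched on both strands. The first is CCAAT, which reads ATTGG from the other strand. The second is the CHR of G2/M genes, spelled TTTGAA. A spelling of the CHR with TTTAAA was accepted too. The third is the E2F motif of genes used at replication, spelled TTTCCCGC, TTTGGCGC, TTTCGCGC or TTTGCCGC.
PIF1 promoter: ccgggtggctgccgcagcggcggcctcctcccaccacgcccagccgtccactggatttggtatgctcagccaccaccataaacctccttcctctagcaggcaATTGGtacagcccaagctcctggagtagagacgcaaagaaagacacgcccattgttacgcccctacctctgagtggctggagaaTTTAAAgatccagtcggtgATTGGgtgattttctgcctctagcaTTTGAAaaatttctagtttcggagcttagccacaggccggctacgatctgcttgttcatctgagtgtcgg
HELLS promoter: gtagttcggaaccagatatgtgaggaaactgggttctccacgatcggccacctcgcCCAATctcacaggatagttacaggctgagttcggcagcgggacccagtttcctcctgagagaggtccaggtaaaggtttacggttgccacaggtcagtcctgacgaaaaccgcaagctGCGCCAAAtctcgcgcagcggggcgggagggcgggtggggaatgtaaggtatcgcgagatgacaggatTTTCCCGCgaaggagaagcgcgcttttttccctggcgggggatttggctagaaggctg
The PIF1 promoter held 2 CCAAT matches, at 148 and 45 bases before the start, and 2 CHR matches, TTTAAA at 64 and TTTGAA at 20 bases before the start, with no E2F match. The HELLS promoter held 2 E2F matches, at 76 and 8 bases before the start, and 1 CCAAT match, with no CHR match. Among all 35116 RefSeq promoters of this length, 34.6% held CCAAT, 24% a CHR match, 3.31% an E2F match and 6.11% 2 or more CHR matches. Among the 13447 promoters of genes present in the data, these shares were 36.3%, 17.8%, 4.8% and 3.44%. RECQL held 5 CCAAT matches, RECQL5 held 1, HELB held 1 and RTEL1 held none, and none of these 4 had a CHR or E2F match. The other members, DNA2, RECQL4 and WRN, were not analysed here for motifs. A match is a description of the letters, not a binding site.

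The libraries were of similar depth, between 16133786 and 16702316 counts per sample, and the first principal component, with 58.5% of the variance, separated the groups. The median log2 fold change over the 12368 genes tested was 0.005. The granulosa label was only partly borne out by its markers. Of the 10 markers in the table, 6 were under 1 CPM in every sample, namely FOXL2, FSHR, CYP19A1, NR5A1, GATA4 and STAR, whereas HSD17B1 was at 12 to 15.5 CPM, ESR2 at 18.1 to 20.5 CPM and AMH at 3.8 to 6.53 CPM. INHA was at 0.483 to 1.17 CPM. Their summed level was 35.4 to 43.2 CPM in control and 37.4 to 39.4 CPM in 4HC. Of 10 markers of blood, vessel, epithelial, stromal, liver and muscle cells 5 were under 1 CPM throughout, with PECAM1, VWF and EPCAM at or near 0. DCN alone was high, at 42.9 to 50.6 CPM, and the sums overlapped between control (49.7 to 56.4 CPM) and 4HC (50 to 56.7 CPM). Of the SWI/SNF ATPases, SMARCA4 was at 21.1 to 28.4 CPM and SMARCA2 at 0 to 0.245 CPM. In bulk RNA, fewer cells of a kind and less RNA per cell cannot be told apart.

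PIF1 was lower and 4 of the other helicases were higher in 4HC. CPM below are counts scaled to a common library size with TMM normalization, mean ± SD with n = 3 per group, and calls are adjusted p-values under 0.05 from edgeR's quasi-likelihood test over all genes tested. Of the 8 other members, RECQL, RECQL4, DNA2 and HELLS passed as higher, where 19.2% of all tested genes did. No other member passed as lower by edgeR, where 17.1% of genes did; at an unadjusted p under 0.05 HELB was the 1 lower gene, and DESeq2 called 0 lower. All 9 genes passed the filter on low counts. The 4HC samples lay above all controls in 6 members, against 23.4% of tested genes. Among the 8 other members, named with earlier results known, they lay below all controls in HELB only, against 21.9% of tested genes. PIF1, chosen for its fall, also lay below all controls. The values of WRN overlapped.

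**Figure D1:**
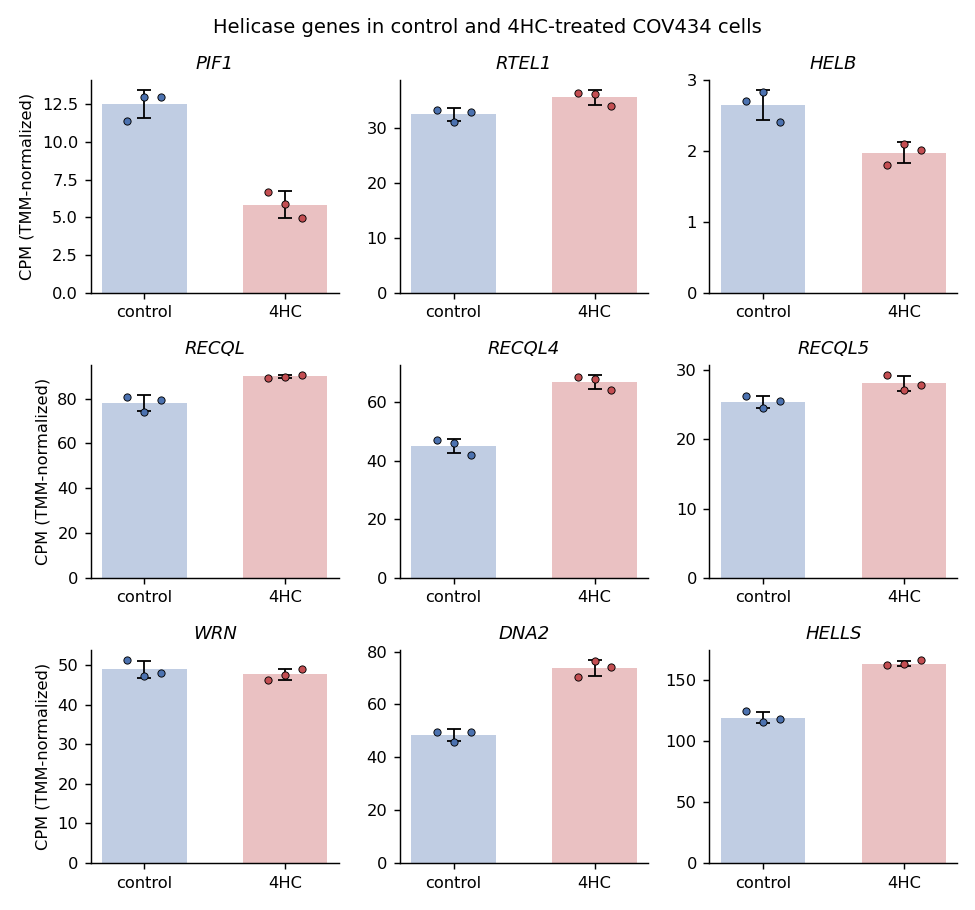
Expression of the 9 helicase genes in TMM-normalized CPM (y axis, from 0) in control and 4HC-treated COV434 cells. Points are samples, bars are means and error bars are SD (n = 3). PIF1 fell from 12.5 to 5.84 CPM, DNA2 rose from 48.4 to 73.7 CPM, and the points of WRN overlapped.

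PIF1 (NCBI Gene 80119, chromosome 15 of GRCh38, 64815632 to 64827173) had expected counts of 185, 212 and 216 in controls 1, 2 and 3 and of 111, 95 and 81 in 4HC samples 1, 2 and 3. In CPM the controls were at 11.4, 13 and 13, and the treated samples at 6.7, 5.86 and 4.96. Every 4HC sample was below every control, and 4HC sample 3 was the lowest. The exact Poisson 95% intervals, which cover counting error only, were 159 to 214, 184 to 243 and 188 to 247 counts in control and 91.3 to 134, 76.9 to 116 and 64.3 to 101 counts in 4HC. The intervals of the groups did not overlap, a description only, since these counts are the ones PIF1 was chosen by. Group means were 12.5 ± 0.946 CPM (control) and 5.84 ± 0.871 CPM (4HC), for a log2 fold change of -1.10 (SE 0.113) or 2.14-fold lower. Of the 10375 genes tested that reached 5 CPM in one group or the other, PIF1 itself had the lowest log2 fold change, which is how it came to be chosen.

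The counts of PIF1 were spread over 6 of its 11 annotated transcripts. GENCODE release 29 matches NM_025049 to a 13-exon messenger of 2687 bases coding for 641 residues, and matches NM_001286496 and NM_001286499 to the same one. NM_025049 carried most of the counts. Its expected counts were 185, 140.5 and 200.2 in control and 111, 51.45 and 81 in 4HC. All 3 values in 4HC were below all 3 in control, as for the gene, with a log2 fold change of -1.11 (SE 0.323). Its share of the gene's counts was 100%, 66.3% and 92.7% in control and 100%, 54.2% and 100% in 4HC. The mean share was 86.3% ± 17.7 in control and 84.7% ± 26.5 in 4HC, a difference of -1.59 percentage points that was within the spread (two-sided exact permutation test, p = 1, where 0.1 is the smallest p possible). Replicate 2 of each group set this spread. The predicted transcript XM_011522084 took 33.25 counts in control 2 and 43.55 counts in 4HC sample 2 and none elsewhere. NM_001286496 and NM_001286499 each took 19.13 counts in control 2 only. XM_011522083 (12.15 counts) and NM_001286497 (3.68 counts), which codes for the longer protein of 707 residues, were seen in control 3 only. These expected counts divide shared reads between near-identical transcripts, and 5 of the 6 transcripts were at 0 in at least 1 sample.

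**Figure D2:**
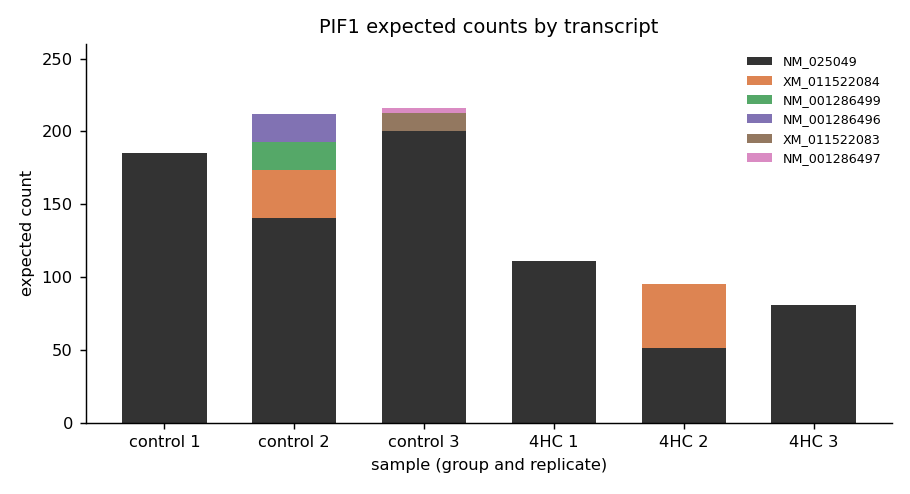
Expected counts of PIF1 (y axis) in each sample, stacked by transcript. NM_025049 carried all counts in control 1 and in 4HC samples 1 and 3, and between 54.2% and 92.7% in the other samples.

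Neither gene near PIF1 in the genome was called lower. RBPMS2, within 50 kb, was at 36.2, 37.7 and 35.3 CPM in control and 45.6, 40 and 40 CPM in 4HC, a rise of 0.20 on the log2 scale (SE 0.0582, adjusted p = 0.00453, edgeR). PLEKHO2, also within 50 kb, was at 10.1 ± 0.855 CPM in control and 11.6 ± 1.02 CPM in 4HC (log2 fold change 0.20, adjusted p = 0.111, edgeR).

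HELB (NCBI Gene 92797, chromosome 12, 66302493 to 66343643) was the other member with lower values in 4HC, at a low level. Its expected counts were 44, 46 and 40 in control and 30, 34 and 33 in 4HC. This gave 2.71, 2.83 and 2.41 CPM in control and 1.81, 2.1 and 2.02 CPM in 4HC, without overlap. The counting intervals of the 2 groups did overlap, with 28.6 to 54.5 for control 3 and 23.5 to 47.5 for 4HC sample 2. The log2 fold change of -0.42 (SE 0.203, 95% interval -0.83 to -0.02) did not pass the threshold in edgeR's test (unadjusted p = 0.0422, adjusted p = 0.0984).

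RTEL1 (NCBI Gene 51750, chromosome 20, 63657810 to 63696412), which opens the loops at chromosome ends, was at 33.3, 31.2 and 33 CPM in control and 36.5, 36.3 and 34 CPM in 4HC. The 4HC samples were all above the controls, by a margin that 4HC sample 3 made narrow. The log2 fold change was 0.13 (SE 0.0586, 95% interval 0.01 to 0.25) and did not pass (adjusted p = 0.0766, edgeR). It passed when 4HC replicate 3 was left out (0.16, adjusted p = 0.0425) and when libraries were scaled by size alone (0.15, adjusted p = 0.0393), with adjusted p-values between 0.0393 and 0.249 over all alternatives. Its 2 main transcripts divided the counts unevenly between controls, so that NM_001283009 had 37.7%, 67.7% and 55.7% of them in control and 42.2% to 45.7% in 4HC.

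RECQL4 and DNA2 had the largest rises among the members, and RECQL the smallest that passed. RECQL4 (NCBI Gene 9401, chromosome 8, 144511288 to 144517833), which takes part in the start of replication, was at 46.9, 46 and 42.1 CPM in control and 68.6, 67.8 and 64 CPM in 4HC. The groups were far apart compared with their spread, and the log2 fold change was 0.57 (SE 0.0514, adjusted p = 2.59e-13, edgeR). Its main transcript, NM_004260, carried 77.6% to 83.2% of the counts and was also called higher (0.63, adjusted p = 0.0178, edgeR over 42216 transcripts). XM_017014001 had 38.86, 52.8 and 55.3 counts in control and 118, 89.76 and 88.31 in 4HC, without overlap, and was not called (adjusted p = 0.19, edgeR).

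RECQL (NCBI Gene 5965, chromosome 12, 21468910 to 21501655), which restores reversed forks, was at 80.6, 73.9 and 79.5 CPM in control and 89.3, 89.8 and 90.5 CPM in 4HC. The 4HC samples lay close together above the controls, and the log2 fold change was 0.20 (SE 0.0442, adjusted p = 0.000201, edgeR). Its counts were divided among 6 transcripts, all detected in every sample and none called. Other genes share its interval, and the counting is not stated to use strand, so the reads of such genes may not be told apart. GOLT1B was at 55.7 ± 1.87 CPM in control and 52.8 ± 3.28 CPM in 4HC (log2 fold change -0.08, adjusted p = 0.251, edgeR), and PYROXD1 fell from 19.4 ± 0.86 to 16.2 ± 0.905 CPM (-0.26, adjusted p = 0.00596, edgeR).

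RECQL5 (NCBI Gene 9400, chromosome 17, 75626845 to 75667202), which binds RNA polymerase II and restrains recombination, was at 26.2, 24.6 and 25.6 CPM in control and 29.3, 27.2 and 27.9 CPM in 4HC. The 4HC samples were above the controls, but the log2 fold change of 0.14 (SE 0.0634, 95% interval 0.02 to 0.27) did not pass (adjusted p = 0.07, edgeR). With scaling by library size alone it did (0.16, adjusted p = 0.0376), and adjusted p-values ran from 0.0376 to 0.252 over all alternatives. MYO15B, which overlaps it, was at 2.73 ± 0.754 CPM in control and 3.11 ± 0.411 CPM in 4HC (adjusted p = 0.476, edgeR), and the overlapping SMIM5 and SMIM6 were under 1 CPM in every sample.

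WRN (NCBI Gene 7486, chromosome 8, 31033749 to 31177168), the RecQ enzyme with an exonuclease of its own, was at 51.3, 47.4 and 48.1 CPM in control and 46.4, 47.5 and 49.1 CPM in 4HC. The groups overlapped, and no difference was called (log2 fold change -0.04, SE 0.0524, 95% interval -0.14 to 0.07, adjusted p = 0.606, edgeR). Within the gene, the predicted transcript XM_011544639 had 44.1%, 42.5% and 43.3% of the counts in control and 30.9%, 37.3% and 36.6% in 4HC. Its counts did not overlap between the groups, although it was not called (log2 fold change -0.35, SE 0.119, adjusted p = 0.331, edgeR). NM_000553, the other main transcript, had 40.9% to 44.1% in control and 43.5% to 47.2% in 4HC.

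DNA2 (NCBI Gene 1763, chromosome 10, 68414064 to 68472521), which trims flaps at replication and the ends of breaks, was at 49.7, 45.8 and 49.7 CPM in control and 70.5, 76.6 and 74 CPM in 4HC. The gap between the groups exceeded the spread within either, and the log2 fold change was 0.61 (SE 0.0498, adjusted p = 1.09e-14, edgeR), or 1.52-fold. NM_001080449 carried 91.6% to 99.2% of the counts and was called higher as well (0.61, adjusted p = 0.0158, edgeR).

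HELLS (NCBI Gene 3070, chromosome 10, 94545778 to 94613905) was the most counted of the members, at 124, 115 and 118 CPM in control and 162, 163 and 166 CPM in 4HC. All 4HC samples were above the controls, and the log2 fold change was 0.46 (SE 0.0387, adjusted p = 2.67e-14, edgeR). Most of this rise in expected counts was assigned to 1 long predicted transcript, XM_024447968, with an effective length of 12968 bases. It took 62.2% to 65% of the counts in control and 69% to 69.5% in 4HC, and was called higher (0.57, adjusted p = 0.0126, edgeR). NM_018063, of 2840 bases, had 293.1, 231.2 and 381 counts in control and 202.3, 115.3 and 353.3 counts in 4HC, with overlap, while NM_001289068 had 293.3 to 427.9 counts in control and 440.2 to 631 counts in 4HC. The gene's effective length, which the authors used to scale counts, accordingly went from 5620 to 6119 bases on average, and the lowest log2 fold change over all alternatives, 0.32, came from values scaled by it.

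Of the 42 transcripts of the 8 members other than PIF1, 31 were tested, and the 3 named above, of RECQL4, DNA2 and HELLS, were called higher and 0 lower by edgeR, where 0.706% of all tested transcripts were called higher. The number of transcripts called in either direction, 546 with all samples, was between 58 and 127 when any 1 sample was left out. With the replicate number as a block it was 0, so that the calls of these 3 transcripts were lost as well.

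Per transcript length, the order of the members was the same in both groups. In control the mean TPM rose from HELB (1.3 ± 0.0985) and PIF1 (8.22 ± 0.617) through RTEL1 and RECQL5 (12 each), WRN (13.7), DNA2 (19.2) and RECQL4 (20.1) to HELLS (33.1) and RECQL (37.2). RTEL1 and RECQL5 could not be separated by their ranges, nor could DNA2 and RECQL4. In 4HC the mean TPM was 0.967 ± 0.0681 for HELB, 3.83 ± 0.585 for PIF1, 13.1 for RTEL1 and for RECQL5, 13.6 for WRN, 29 for DNA2, 29.5 for RECQL4, 41.5 for HELLS and 42.4 for RECQL. There the ranges of RTEL1 and RECQL5, of RECQL5 and WRN, of DNA2 and RECQL4 and of HELLS and RECQL overlapped. PIF1 and DNA2, both active on flaps and forks, moved apart, and the ratio of PIF1 to DNA2 in TPM was 0.377, 0.476 and 0.44 in control and 0.159, 0.128 and 0.11 in 4HC. The fall of this ratio follows at least in part from how PIF1 was chosen, and is a description only. The TPM of RECQL, RECQL4, RECQL5 and WRN together were 86.3, 79.6 and 82.8 in control and 100, 97.8 and 97.5 in 4HC.

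**Figure D3:**
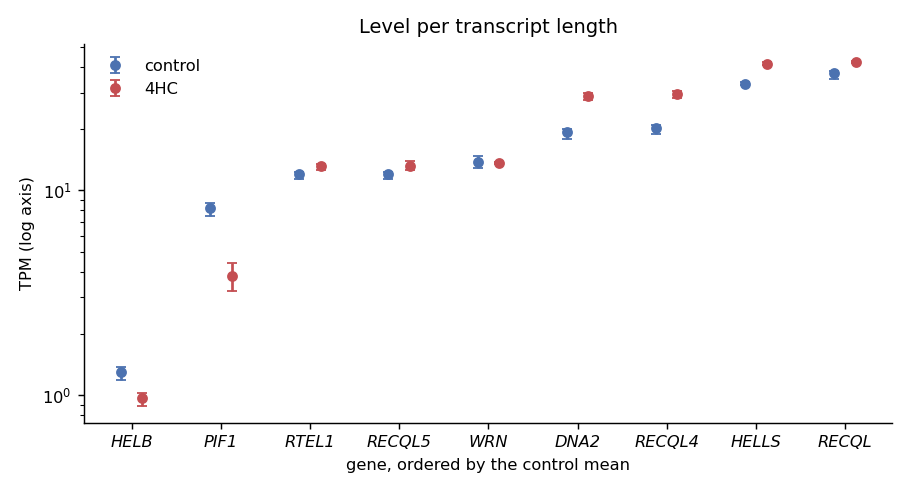
Mean TPM of each member (y axis, log scale) in control and 4HC, with bars from the lowest to the highest sample (n = 3) and genes ordered by the control mean. The order was the same in both groups, PIF1 fell from 8.22 to 3.83 TPM, and DNA2 and RECQL4 overlapped each other in both groups.

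Among the 5 genes whose pattern over the 6 samples was nearest to that of PIF1 were PLK1, GRIN2D, ZBTB12 and CDC20, by the Euclidean distance of centred log2 CPM among 10372 other genes. PLK1, a kinase of mitosis, was at a distance of 0.511 and at 115, 116 and 117 CPM in control and 73.6, 71.6 and 64.6 CPM in 4HC. CDC20, which activates the anaphase-promoting complex (distance 0.606), was at 104 ± 1.12 and 65.7 ± 3.62 CPM. These 4 genes were lower in 4HC than in control, by less than PIF1. Both points follow from how these genes and PIF1 were chosen, and are a description only. GRIN2D, a glutamate receptor subunit (distance 0.596), was at 8.99 ± 0.547 and 5.34 ± 0.308 CPM, and ZBTB12, a zinc finger protein (distance 0.599), at 9.62 ± 0.584 and 6.01 ± 0.271 CPM. The promoters of PLK1 and CDC20, like that of PIF1, held CHR matches (3 and 2) and CCAAT matches (1 and 2), while those of GRIN2D and ZBTB12 held neither.

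**Figure D4:**
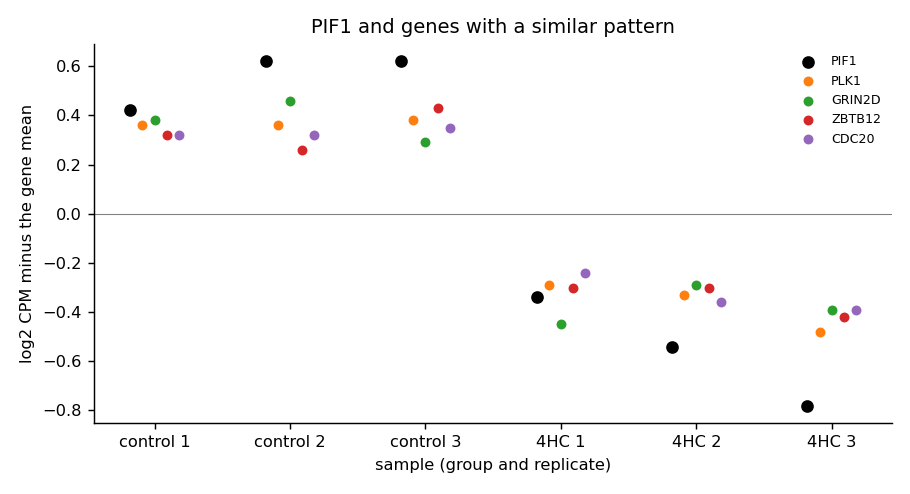
Log2 CPM of PIF1 and 4 of the 5 genes nearest to it in pattern, each minus its own mean over the 6 samples (y axis), by sample. The points of PIF1 (black) lie above those of the other genes in every control and below them in 4HC samples 2 and 3.

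Among companion lists compiled with earlier results of these data known, replication helicase genes were mostly higher and mitotic genes more often lower. A list of 12 genes held MCM10 and the subunits of the replicative CMG helicase, which unwinds DNA at every fork. Of these, 8 were higher (66.7%, against 19.2% of all genes tested) and 1, MCM6, was lower (8.33%, against 17.1%). The median log2 fold change was 0.26 against 0.005 over all genes. GINS4 rose from 50.7 ± 0.471 to 78.9 ± 1.81 CPM (log2 fold change 0.64), GINS1 by 0.50 and GINS3 by 0.36, and MCM6 fell from 240 ± 10.6 to 197 ± 4.55 CPM. Of the 9 of these genes with a promoter sequence, 7 held an E2F match, as HELLS did, 7 held CCAAT (77.8%) and 0 a CHR match.

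Of 31 tested helicases and translocases outside the members, 13 were higher (41.9%, against 19.2% of all genes tested) and 4 lower (12.9%, against 17.1%). The median log2 fold change of this list was 0.07. The median was 0.03 without control replicate 3 or without 4HC replicate 3, and 0.04 without 4HC replicate 1. POLQ, the polymerase and helicase of end joining, rose from 45.1 ± 2.86 to 71.6 ± 3.1 CPM (0.67), RAD54L, a motor of recombination, by 0.65, and BLM, the remaining RecQ helicase, from 27.2 ± 1.19 to 41.9 ± 3.37 CPM (0.62). The lower genes, named because they were few, were TWNK, the mitochondrial replicative helicase, from 30.6 ± 1.19 to 22.7 ± 1.08 CPM (-0.43), and DHX36, ERCC2 and DHX9, with log2 fold changes between -0.17 and -0.13. Helicases that unwind G-quadruplexes, as PIF1 does, were not compared as a group.

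Of 23 partner genes of the members, which share WRNIP1 with the helicases above, 8 were higher (34.8%, against 19.2% of all genes tested). Another 4 were lower (17.4%), near the 17.1% of all genes tested. The median log2 fold change was 0.06. The median was 0.11 without control replicate 1, 0.04 without control replicate 3, and 0.03 without control replicate 2 or without 4HC replicate 1. EXO1, which resects breaks alongside DNA2, rose by 0.47, RMI2, of the complex that dissolves recombination intermediates, by 0.46, and FEN1, the flap nuclease, by 0.46 on the log2 scale. RPA1, RPA2 and RPA3, the single-stranded DNA binding subunits, rose by 0.22, 0.21 and 0.38. The lower partners were CDCA7 and ZBTB24, which act with HELLS in DNA methylation, at -0.24 each, CIAO1, of iron-sulfur cluster assembly, at -0.12, and XRCC6, of the Ku complex, at -0.14. CDCA7 thus fell, from 87.6 ± 3.29 to 74.2 ± 2.86 CPM (adjusted p = 2.47e-05, edgeR), while HELLS rose.

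Of 18 telomere maintenance genes, 1 was higher (5.56%, against 19.2% of all genes tested) and 2 were lower (11.1%, against 17.1%). The median log2 fold change was 0.04. The median was 0.01 without control replicate 2 and turned to -0.01 without 4HC replicate 1. TERT, the telomerase enzyme that PIF1 acts against, rose from 3.69 ± 0.113 to 4.87 ± 0.265 CPM (log2 fold change 0.40, adjusted p = 0.0348, edgeR), and DKC1 and GAR1, of the telomerase RNA particle, fell by 0.27 and 0.23. Of 30 G2/M and mitosis genes, 7 were higher (23.3%, against 19.2% of all genes tested) and 12 lower (40%, against 17.1%). The median log2 fold change was -0.08. PLK1 fell by 0.73, CDC20 by 0.66 and CCNB1, a mitotic cyclin, by 0.57, whereas FOXM1 rose by 0.37. In 24 of these genes with a promoter sequence, 75% held a CHR match, 83.3% CCAAT and 4.17% an E2F match. CCAAT was also frequent in the CMG list (77.8%). All 27 direct p53 targets were higher, where 19.2% of all genes tested were, with a median of 0.77. Among them were CDKN1A at 225 ± 7.25 CPM in control and 783 ± 18 CPM in 4HC, GDF15 with a log2 fold change of 2.12 and PLK3 with 1.51. The part of these changes in the values of the members was not tested.

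**Figure D5:**
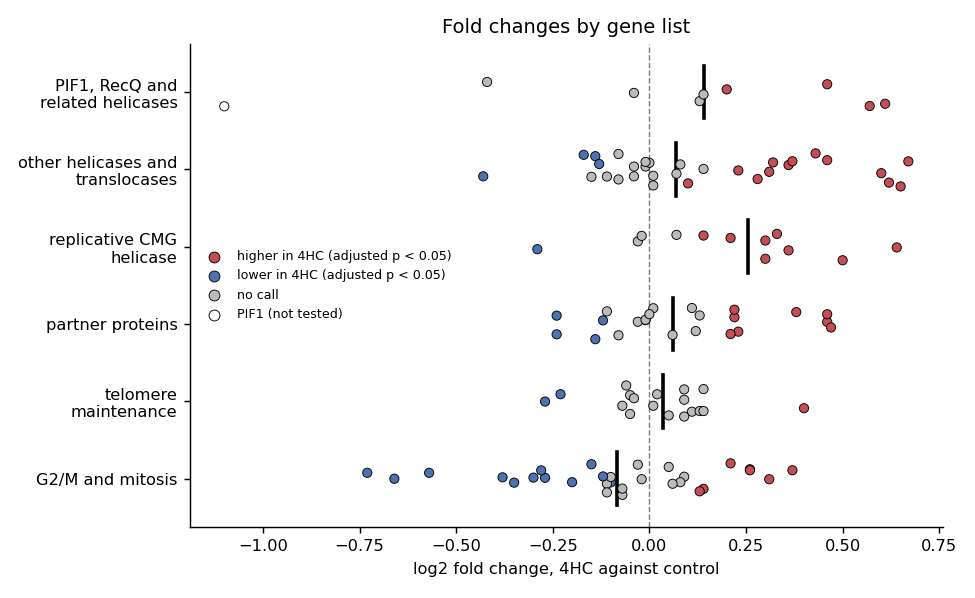
Log2 fold change of 4HC against control (x axis) for each tested gene of the members and of 5 companion lists, with vertical bars at list medians and vertical jitter for display. PIF1 (open point, -1.10), which was chosen for its fall, lies apart from all other genes drawn. The direct p53 targets are not drawn. The median was 0.26 in the CMG list and -0.08 in the G2/M list.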

How the data were processed

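Total RNA of 6 COV434 samples was sequenced, and reads were filtered by the authors with SOAPnuke. The submitters' processing notes list HISAT2, Bowtie2, RSEM 1.3.1, DESeq2 1.4.5 and GRCh38.p13, without roles or order. The authors deposited an expected count per gene and transcript, estimated and not normalized, with TPM and FPKM values scaled to length and depth. Of the deposited expected counts, 85.5% of those per gene and 38.9% of those per transcript were whole. Their columns of fold changes, p-values and q-values were not used, nor was a second gene table with identical values.

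Expected counts were rounded and tested between groups with edgeR 4.0.16 in R 4.3.3 (TMM, filterByExpr, quasi-likelihood test, condition as the only term), with Benjamini-Hochberg adjustment over all genes or all transcripts tested. Intervals of fold changes are 95% intervals from the same fit. The scripts were first tested on simulated data. DESeq2 1.42.0, its size factors, library size alone, other filters, a replicate block, limma 3.58.1 on log2 values of TPM or FPKM, and leaving out each sample were the alternatives. Levels of different genes were compared as TPM only. Counts were between 16133786 and 16702316 per sample, and a count of 0 allows up to 3 counts.

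Members and lists were chosen with earlier results of these data known. Named genes were the members, genes overlapping a member or within 50 kb of PIF1, the 3 called genes with the largest change per list, the 5 genes nearest to PIF1 in pattern (1 of them is not reported here), and cell markers. MCM6, FOXM1, the RPA genes and the lower helicases and partners were named after their values were seen. Promoters are RefSeq sequences of GRCh38.p14 and transcript matches are from GENCODE release 29. Python 3.11.15, pandas 2.3.3, scipy 1.17.1 and matplotlib 3.10.9 were used.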

Additional observations from a re-analysis of the deposited data

How the results depend on the processing

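RECQL, RECQL4, DNA2 and HELLS were called higher under all 16 alternatives, with at least 4 and at most 6 of the 8 other members called higher and 0 called lower. The log2 fold change of PIF1 lay between -1.21 and -0.99 when 1 sample was left out, and was -0.84 with limma on log2(FPKM + 1), a scale that compresses low values. On that scale WRN turned from -0.04 to 0.02, and 1343 genes were lower in place of 2118, with 62.8% of calls higher against 52.9%; with scaling by library size alone 61.1% of calls were higher. DESeq2 called 1629 genes higher. Over all alternatives the median log2 fold change ran from 0.03 to 0.1 in the other helicases, 0.02 to 0.11 in the partners and -0.01 to 0.06 in the telomere genes.

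The difference in the share of PIF1 counts on NM_025049, -1.59 percentage points, ranged from -11.6 to 13.7 when 1 sample was left out, and turned to 5.25 without control replicate 1, 1.58 without control replicate 3 and 13.7 without 4HC replicate 2. Transcript calls, 546 in the reported test, were 2491 with DESeq2, 0 with the replicate block and 58 to 127 with 1 sample left out. The cause was not tested.

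Deviations of log2 CPM from the group means had correlations of -0.01, 0.06 and 0.05 between samples of the same replicate number. The numbers were therefore not taken to pair the samples. By this measure not every sample correlated best with its own number. With the replicate block 2259 genes were higher and 1954 lower, and no call of a member gene changed, while the transcript calls of RECQL4 (NM_004260), DNA2 (NM_001080449) and HELLS (XM_024447968) were lost. Depth limits HELB, with at most 46 counts in a sample, and the minor transcripts. With 3 samples a group, outlying samples were not tested for.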
